A study of Rattus norvegicus with 8 samples.

Results

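The CYP4 fatty acid omega-hydroxylases were followed in rat liver through 16 array probes for 8 genes: Cyp4a1, Cyp4a2, Cyp4a3, Cyp4a8, Cyp4b1, Cyp4f1, Cyp4f4 and Cyp4v3. Members were all non-control probes whose deposited gene name equals one of these symbols. They make up 16 of 46883 distinct probes and 8 of 25512 gene names on the array. The study compared livers of male Sprague Dawley rats fed a 60% high-fat diet for 12 weeks (4 samples) with livers of rats fed a normal diet for 12 weeks (4 samples). Both groups carried the same weight label, 180 to 200 g, and no age is given in the labels. Total RNA was labelled with Cy3 and hybridised to a 1-colour Agilent array, 1 array per sample. Nothing in the labels says that the samples came from separate animals, and that spread, possibly technical, is what the p-values rest on.

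CYP4 enzymes are cytochromes P450 of the endoplasmic reticulum that add a hydroxyl group to the terminal (omega) carbon of a fatty acid. Alcohol and aldehyde dehydrogenases then turn the product into a dicarboxylic acid, which is shortened by beta-oxidation in peroxisomes. In rodent liver the CYP4A genes are textbook targets of the fatty acid receptor PPAR-alpha, whereas CYP4F enzymes are best known for inactivating leukotrienes and other eicosanoids.

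Levels are given as normalized log2 intensity, on which 0 is an array's 75th percentile over probes well above background on all 8 arrays. A change is the high-fat mean minus the control mean on that scale, with a 95% interval from limma. Adjusted p-values are Benjamini-Hochberg values over the 31535 probes that were well above background on at least 4 arrays, and the threshold was 0.05. Counts of genes past the threshold use 1 probe per gene, with p adjusted over the 18587 genes tested. Levels of different probes are not compared, because probes differ in their response to the same amount of RNA. The share of probes well above background ran from 50.38% (control replicate 1) and 56.33% (high-fat replicate 1) to 71.87%. The 9 hepatocyte markers tested, among them Alb and Apob, had a mean level between 4.17 and 4.53 on control arrays and between 4.23 and 4.604 on high-fat arrays. Their median change was -0.03.

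Of the 16 member probes, 14 were tested and 2, both for Cyp4a8, were not. None of the 14 passed the adjusted threshold by limma, where 0.907% of all tested probes did in either direction and 0.377% did as higher on high fat (0.53% as lower). At an unadjusted p under 0.05, 6 of the 14 were higher and 0 were lower, against 7.78% of all tested probes higher. The 4 high-fat arrays lay wholly above the 4 control arrays for 6 probes in 4 genes (Cyp4a2, Cyp4b1, Cyp4f4 and Cyp4v3), against 5.18% of all tested probes. They lay wholly below for 0, against 5.46%. The change was positive for 13 of the 14, against 53.2% of all tested probes, and its median was 0.44 against 0.02. Several of these probes read the same transcript, so they are not independent. In data simulated for this design, 37.4% of probes with a 2-fold difference and 80.2% with a 4-fold difference were recovered. That simulation gave each probe independent noise and raised 200 of 31455 probes, so recovery in the real data may differ.

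**Figure D1:**
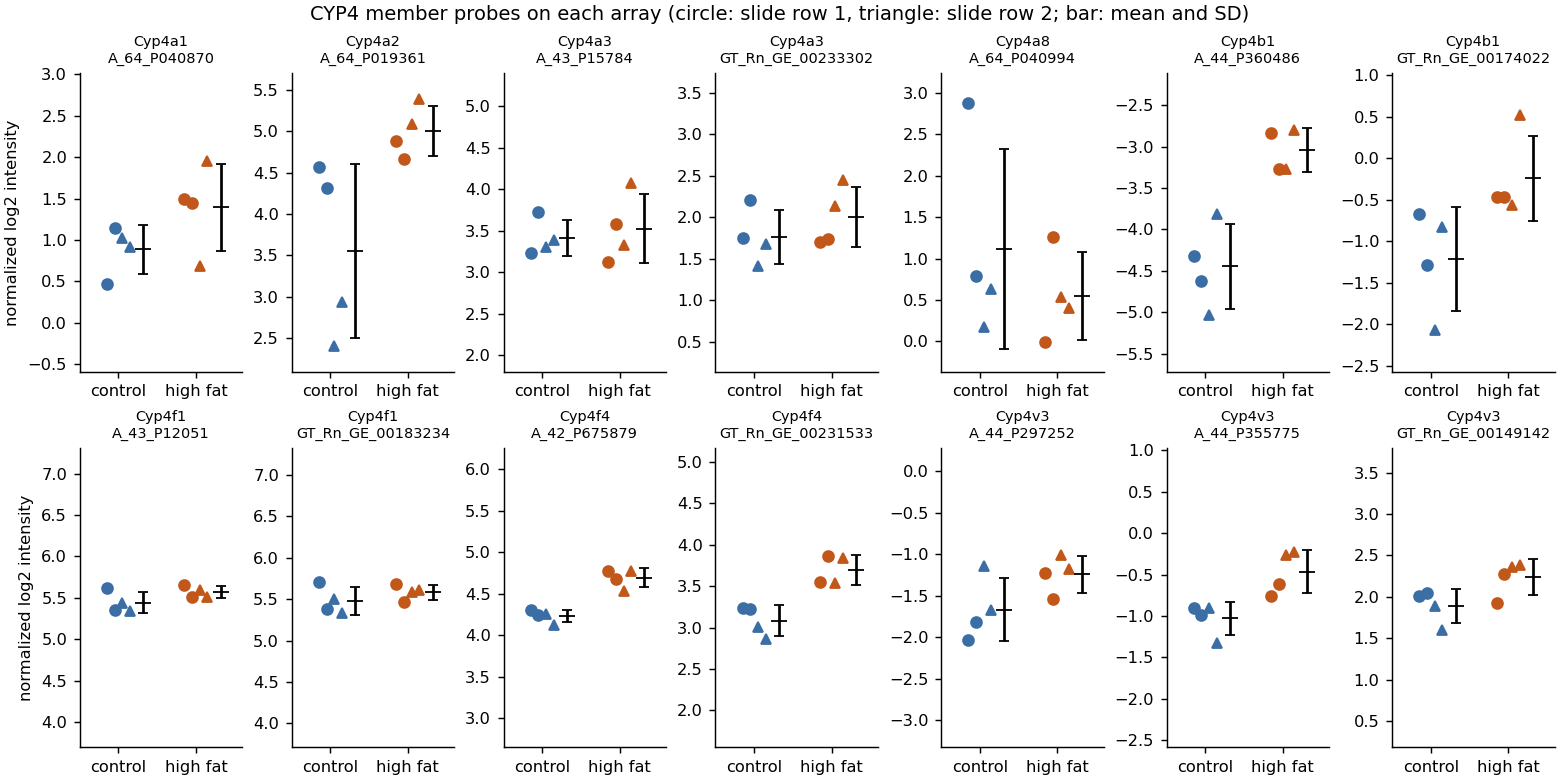
Normalized log2 intensity (vertical axis, each panel spanning the same range) of the 14 tested CYP4 probes on each array, control in blue and high fat in orange. Circles are arrays of slide row 1, triangles arrays of slide row 2, and the bar is the group mean with its SD (n = 4). Slide row was inferred from the names of the scans and is not given in the labels. Groups are apart for Cyp4a2, both Cyp4b1 probes, both Cyp4f4 probes and Cyp4v3 probe A_44_P355775, and the control arrays of Cyp4a2 fall in separate pairs by slide row.

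The CYP4A genes sit close together on rat chromosome 5. They are paralogs whose transcripts were not compared here, so what each probe can read comes first. The following are the opening 30 bases of the 60-base probes for this subfamily, 5′ to 3′, as the scanner files give them, shown so that the probes for the paralogs can be set side by side.
Cyp4a1, A_64_P040870: agactgttacctggtacgttcatctaaatc
Cyp4a2, A_64_P019361: gaaggaaggtgactcaaaagaagagatttc
Cyp4a3, A_43_P15784: taattctgatacagaacagtagagagaaat
Cyp4a3, GT_Rn_GE_00233302: gctaatttatactcattttgctttctcttt
Cyp4a8, A_64_P040994: tggcccggaaaccaggaaagggaataacac
P450 4A2 transcript, A_64_P138365: tacaggttatggtttgctcctgttgaatgg
Over all 32 CYP4 probes of the array, the longest run shared by probes for different genes was 11 bases (477 pairs compared). That compares the probes with each other and does not show whether a probe also pairs with a paralog's transcript, which was not tested here. The RefSeq table of GRCr8 lists further CYP4A loci: a protein-coding Cyp4a2l1 and the pseudogenes Cyp4a2-ps1, Cyp4a2-ps2 and Cyp4a8-ps1. No probe of the array carries a name for any of them.

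Cyp4a2, a male-predominant arachidonic acid and lauric acid hydroxylase of rat liver and kidney, had the largest positive change of the tested member probes. Its probe lies at chr5:135547423-135547482 of rn4 on the minus strand, 1842 bases into its transcript. By those coordinates it falls between the 2 mapped Cyp4a8 probes, at chr5:135546881-135546940 and chr5:135547750-135547809, so which of these paralogs it reads cannot be told apart from the coordinates alone. The 4 control levels were 4.57, 4.31, 2.41 and 2.94, and the 4 high-fat levels were 4.88, 4.66, 5.08 and 5.38. Every high-fat array was above every control array, but control replicates 1 and 2 were close to the lowest high-fat arrays while control replicates 3 and 4 were far below. The means were 3.56 ± 1.05 and 5.002 ± 0.31 (SD, n = 4 each). The change was 1.45 (interval 0.38 to 2.51; 2.72-fold) and did not pass the threshold by limma (adjusted p = 0.198, range 0.117 to 0.399 over 19 alternatives). Array position on the slide was inferred from the names of the scans, because the labels do not describe slide layout. By that reading, row 1 holds replicates 1 and 2 of both diets and row 2 holds replicates 3 and 4. The Cyp4a2 change was 0.33 within row 1 and 2.56 within row 2. Whether slide row plays a part was not tested. With slide row as a block the limma adjusted p was 0.184, and the change stayed at 1.45 because the diets are balanced over the rows. That fit has no term for a different change in each row, so it does not bear on these 2 values.

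A further probe is for a transcript that the files describe as a cytochrome P450 4A2 but name only by its Ensembl identifier, ENSRNOT00000051252. It is no member by the rule, and whether it reads Cyp4a2 or another CYP4A gene was not tested. Probe A_64_P138365 lies at chr5:135884155-135884214 of rn4, between the mapped Cyp4a3 and Cyp4a1 probes. Its control levels were -1.997, -1.29, -2.33 and -1.57, and its high-fat levels were -0.53, -1.10, -0.29 and -0.04. The groups did not overlap, and the change was 1.31 (interval 0.65 to 1.97; limma adjusted p = 0.0811). It was 0.83 within slide row 1 and 1.79 within slide row 2. Its change passed the threshold under 3 alternatives, with normexp background correction (adjusted p = 0.0431), with only probes well above background on all 8 arrays (0.0431) and with a robust variance trend (0.0467).

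Cyp4a3, like Cyp4a2 an arachidonic acid hydroxylase, was read by 2 probes, and neither differed between the diets beyond the spread of the arrays. Probe A_43_P15784 (chr5:135876161-135876220, rn4) gave control levels of 3.23, 3.73, 3.30 and 3.38 and high-fat levels of 3.12, 3.58, 3.33 and 4.08. The groups overlapped, and the change was 0.12 (interval -0.39 to 0.62; limma adjusted p = 0.859). It turned to -0.07 without high-fat replicate 4. Probe GT_Rn_GE_00233302, for the same transcript, gave a change of 0.24 (interval -0.28 to 0.76; limma adjusted p = 0.675), also with overlapping groups.

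Cyp4a1, a lauric acid omega-hydroxylase and the classical peroxisome-proliferator-inducible P450, had control levels of 0.47, 1.14, 1.03 and 0.91. Its high-fat levels were 1.497, 1.45, 0.68 and 1.95. Of the high-fat arrays, 3 lay above all controls and replicate 3 lay among them. The change at A_64_P040870 (chr5:135915634-135915693, rn4) was 0.51 (interval -0.12 to 1.13; limma adjusted p = 0.427, range 0.229 to 0.693 over 19 alternatives). Without high-fat replicate 4 it was 0.32.

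Cyp4a8 was the member whose probes disagreed. Probe A_64_P040994 was well above background on all 8 arrays, whereas A_64_P040989 never was. The third probe, GT_Rn_GE_00199827, was well above background on 1 high-fat array and on no control array. All 3 are listed for one transcript. The readable probe gave control levels of 2.88, 0.79, 0.17 and 0.63 and high-fat levels of -0.01, 1.26, 0.54 and 0.40. Control replicate 1 stood above every other array. The change was -0.57 (interval -1.85 to 0.70; limma adjusted p = 0.692), the only negative one among the tested member probes, and it was 0.02 without control replicate 1. Without both arrays that had the fewest probes well above background it was 0.20.

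Whether the CYP4A genes changed by different amounts was tested by the exact two-sided permutation test of the 8 arrays, for the 6 pairs of the 4 genes, a comparison added after the values had been seen. The change of Cyp4a2 exceeded that of Cyp4a8 by 2.02 (exact permutation p = 0.0571, adjusted 0.257) and that of Cyp4a3 by 1.33 (exact permutation p = 0.0857, adjusted 0.257). The other 4 pairs had adjusted p between 0.3 and 0.486 by the same exact test. The smallest p that this design allows is 0.0286, and a single pair at that p would not pass after adjustment over 6 pairs. These tests therefore do not show whether the genes changed alike.

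The promoters of Cyp4a2 and Cyp4a3 are printed to show how alike these paralogs are upstream of their starts. Both are the 250 bases before the RefSeq start on GRCr8, minus strand, at chr5:134170909-134171158 for Cyp4a2 and chr5:134352237-134352486 for Cyp4a3, with the nuclear receptor half-site AGGTCA in capitals.
Cyp4a2: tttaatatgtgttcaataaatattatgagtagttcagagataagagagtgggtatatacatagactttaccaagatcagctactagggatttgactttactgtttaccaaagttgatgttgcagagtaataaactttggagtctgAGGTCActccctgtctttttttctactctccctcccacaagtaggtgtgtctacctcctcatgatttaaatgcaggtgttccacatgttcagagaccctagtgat
Cyp4a3: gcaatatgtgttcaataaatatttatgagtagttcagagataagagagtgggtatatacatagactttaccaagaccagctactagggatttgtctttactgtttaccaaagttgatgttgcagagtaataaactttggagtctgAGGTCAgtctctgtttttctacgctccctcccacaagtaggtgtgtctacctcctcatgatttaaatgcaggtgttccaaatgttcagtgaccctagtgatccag
The aligned stretch was 92.5% identical over 255 positions, and the half-site stood 105 bases before the start in both. On either strand, AGGTCA was found in 2 of the 5 members with a promoter in the table and in 14.1% of all 33469 promoters over the same window. Those 2 were Cyp4a2 and Cyp4a3, which are not independent given their identity. Cyp4a1, Cyp4f4 and Cyp4v3 had no promoter in the table. A direct repeat of this half-site with 1 base of any kind between the copies (DR1), which therefore contains AGGTCA, was found in 0 of the 5 and in 0.0508% of all. Only exact repeats were sought, and for so rare a repeat 5 promoters are too few to show whether members differ from the rest. The promoters of Cyp4a2 and Cyp4a2l1 shared an unbroken run of 264 bases of their 300-base windows.

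Cyp4b1 is a P450 best known from lung that hydroxylates short and medium-chain fatty acids and activates some protoxins. Of the tested member probes, its A_44_P360486 had the smallest adjusted p, but this probe does not stand for the gene. Over genes the limma adjusted p was 0.24 for Cyp4b1, 0.116 for Cyp4f4 and 0.198 for Cyp4a2. Cyp4b1 lies in the same stretch of chromosome 5. Its probe A_44_P360486 maps to chr5:135922246-135922305 of rn4, 1011 bases into the transcript, and 1 of its 3 forward reading frames has no stop codon. It is shown whole, 5′ to 3′, because the smallest p rests on it.
Cyp4b1, A_44_P360486: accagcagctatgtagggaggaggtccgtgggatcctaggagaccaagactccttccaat
The control levels were -4.32, -4.62, -5.03 and -3.81, and the high-fat levels were -2.84, -3.27, -3.27 and -2.80. Every high-fat array was above every control array, and the change was alike in both slide rows, 1.41 in row 1 and 1.38 in row 2. The means were -4.45 ± 0.52 and -3.05 ± 0.26 (SD, n = 4 each), a change of 1.40 (interval 0.80 to 1.999; 2.64-fold). By limma the unadjusted p was 0.00057 and the adjusted p 0.0549, with a range of 0.0265 to 0.158 over 19 alternatives.

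The alternatives under which this Cyp4b1 probe passed the threshold were 4 of 19. The adjusted p by limma was 0.0303 with normexp background correction, under which the change was 0.997, and 0.0265 when only probes well above background on all 8 arrays were tested. It was 0.0342 with a robust variance trend and 0.0419 without control replicate 4. The second probe, GT_Rn_GE_00174022, gave control levels of -0.68, -1.29, -2.08 and -0.83 and high-fat levels of -0.47, -0.47, -0.56 and 0.52. These groups did not overlap either, although the gap between the highest control and the lowest high-fat array was small. The change was 0.98 (interval 0.17 to 1.78; limma adjusted p = 0.243), with 0.52 in slide row 1 and 1.43 in slide row 2. Both probes were therefore higher on every high-fat array, and neither passed the threshold.

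**Figure D2:**
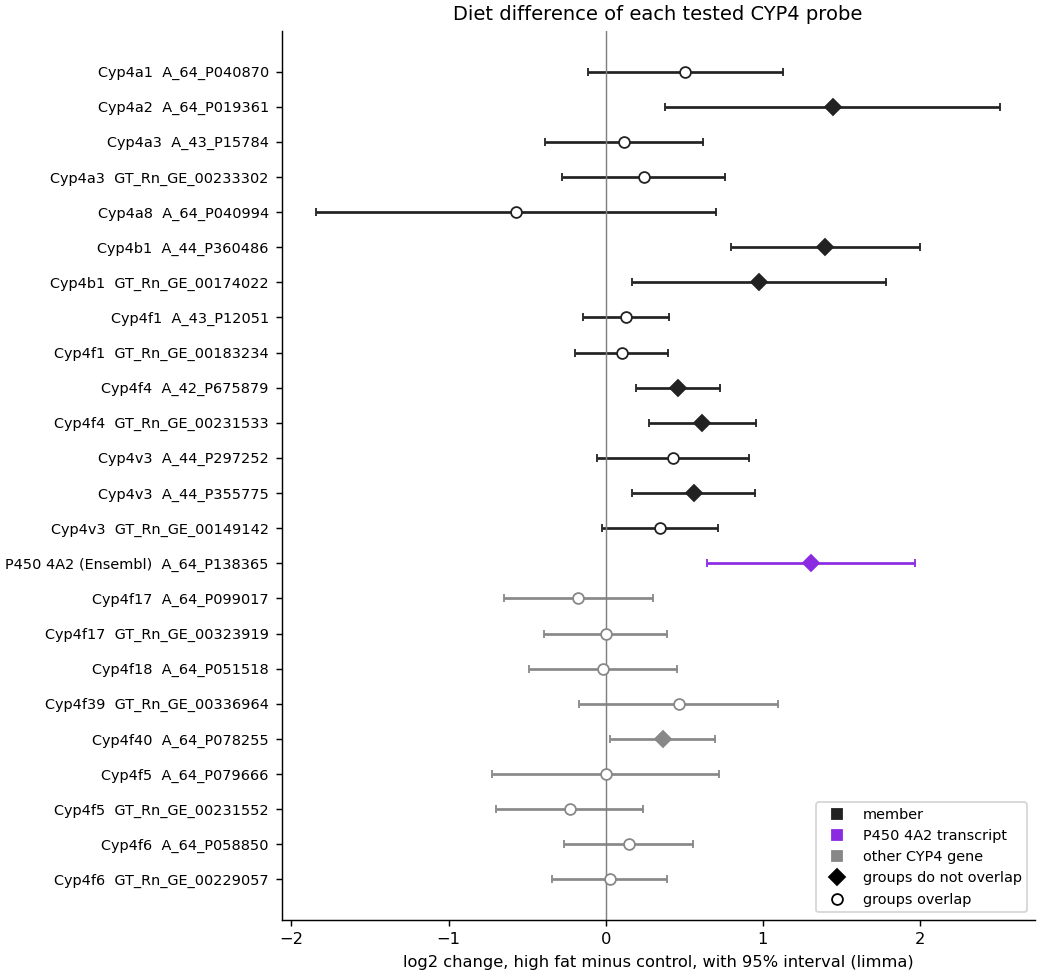
Log2 change, high fat minus control, of each tested CYP4 probe with its 95% interval from limma (horizontal axis, n = 4 arrays per diet). Members are black, the P450 4A2 transcript purple and other CYP4 genes grey, and filled diamonds mark probes whose groups did not overlap. Among members, the intervals of Cyp4a2, Cyp4b1, Cyp4f4 and Cyp4v3 probe A_44_P355775 lie above 0. So do those of the P450 4A2 transcript and Cyp4f40 probe A_64_P078255, and no probe passed the adjusted threshold.

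Cyp4f4, an eicosanoid and fatty acid omega-hydroxylase of rat liver and brain, was higher on every high-fat array at both of its probes, and its arrays varied little within a diet. The following are the opening 30 bases of both probes, which share no long run of bases, unlike the overlapping Cyp4f1 pair.
Cyp4f4, A_42_P675879: acctccattctaatctcaaaactctcatcc
Cyp4f4, GT_Rn_GE_00231533: aaccagcagttgtggcagggagggagatgg
At A_42_P675879 (chr7:13309322-13309381, rn4) the control levels were 4.30, 4.24, 4.25 and 4.13, and the high-fat levels were 4.77, 4.68, 4.54 and 4.78. The gap between the groups was wider than the whole range of the control arrays. The change was 0.46 (interval 0.20 to 0.73; 1.38-fold), with 0.46 in slide row 1 and 0.47 in slide row 2, and the limma adjusted p was 0.118 (range 0.0435 to 0.308 over 19 alternatives). At GT_Rn_GE_00231533 the control levels were 3.24, 3.23, 3.01 and 2.86 and the high-fat levels were 3.55, 3.86, 3.53 and 3.84, again with no overlap. The change was 0.61 (interval 0.27 to 0.95; 1.53-fold; limma adjusted p = 0.104, range 0.0252 to 0.267). With a robust variance trend both probes passed (adjusted p = 0.0435 and 0.0477), and with normexp background correction only the second did (0.0252).

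Cyp4f1, the other eicosanoid-metabolising CYP4F member, had nearly the same level under both diets. Probe A_43_P12051 (chr7:13589691-13589750, rn4) ranged from 5.35 to 5.62 on control arrays and from 5.51 to 5.66 on high-fat arrays. Its change was 0.13 (interval -0.14 to 0.40; limma adjusted p = 0.671). The second probe overlaps the first and gave 0.10 (interval -0.19 to 0.40; limma adjusted p = 0.772), so the pair is 1 reading, not 2. The upper limit of both intervals, 0.40, was below the central values of both Cyp4f4 probes, but a difference between these genes was not tested.

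Cyp4v3, the rodent counterpart of the human retinal dystrophy gene CYP4V2 and a medium-chain omega-hydroxylase, was read by 3 probes with changes of like size. At A_44_P355775 (chr16:50232956-50233013, rn4) the control levels were -0.90, -0.98, -0.90 and -1.33 and the high-fat levels were -0.76, -0.61, -0.26 and -0.23. The groups were apart, by a narrow margin in slide row 1. The change was 0.56 (interval 0.17 to 0.95; limma adjusted p = 0.177), with 0.26 in slide row 1 and 0.86 in slide row 2. At A_44_P297252 the change was 0.43 (interval -0.06 to 0.91; limma adjusted p = 0.386), and at GT_Rn_GE_00149142 it was 0.35 (interval -0.02 to 0.71; limma adjusted p = 0.352), both with overlapping groups.

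The array also holds 15 probes for 7 CYP4 genes outside the set: Cyp4f5, Cyp4f6, Cyp4f17, Cyp4f18, Cyp4f39, Cyp4f40 and Cyp4x1. Of these probes 9, in 6 genes, were tested, and none passed the adjusted threshold by limma, where 0.907% of all tested probes did. At an unadjusted p under 0.05 there was 1, where 15.5% of all tested probes passed in either direction. That 1 was Cyp4f40 probe A_64_P078255, with a change of 0.36 (interval 0.03 to 0.70; limma adjusted p = 0.288). Its high-fat arrays lay wholly above its control arrays, as they did for 5.18% of all tested probes. The other Cyp4f40 probe, GT_Rn_GE_00130999, was well above background on no array and was not tested. The other 8 tested probes had changes from -0.23 (Cyp4f5) to 0.46 (Cyp4f39), all with overlapping groups. Cyp4x1 had no tested probe.

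For the enzymes that follow the CYP4 step, no gene passed the threshold. None of the 12 omega-oxidation dehydrogenases tested, the alcohol and aldehyde dehydrogenases, passed the threshold, and their median change was 0.02 against 0.00 over all 18587 genes tested. The fatty aldehyde dehydrogenase Aldh3a2 changed by 0.31 (limma adjusted p = 0.450). Over all genes tested, 0.829% passed the threshold. None of the 24 tested genes of peroxisomal oxidation passed it either, at a median of 0.09, with 4 higher and 3 lower at an unadjusted p under 0.05, which 15.5% of all tested probes had in either direction. Among these, Acox2, the branched-chain acyl-CoA oxidase, had a change of 0.94 (limma adjusted p = 0.12). The acyl-CoA thioesterases of the list did not share a direction, with changes of -0.43 for Acot8 (limma adjusted p = 0.135), -1.26 for Acot3 (0.158), -1.80 for Acot5 (0.218), -0.47 for Acot4 (0.329) and 0.61 for Acot12 (0.233).

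Of PPAR-alpha, its partners and its targets outside CYP4, none of 27 tested genes passed the threshold, against 0.829% of all genes tested. Their median change was 0.22, against 0.00 over all genes. At an unadjusted p under 0.05 by limma, 5 were higher and 1 was lower. Of all tested probes, 7.78% were higher at that p and 15.5% passed it in either direction. The medium-chain and long-chain acyl-CoA dehydrogenases Acadm and Acadl changed by 0.56 and 0.47 (limma adjusted p = 0.115 and 0.133). The electron transfer flavoprotein dehydrogenase Etfdh changed by 0.55 (limma adjusted p = 0.153). The fatty acid transporter Cd36 changed by -1.002 (limma adjusted p = 0.222). Ppara itself changed by -0.03 (interval -0.82 to 0.75) and its partner Rxra by 0.22 (interval -0.21 to 0.66).

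For P450 electron supply and heme synthesis, 0 of 15 tested genes passed the threshold by limma, against 0.829% of all genes tested. At an unadjusted p under 0.05, 0 were higher and 2 lower, where 15.5% of all tested probes passed in either direction. The reductase Por changed by 0.82 with a wide interval of -0.49 to 2.13, and cytochrome b5, Cyb5a, by 0.17 (interval -0.08 to 0.43). The cytochrome b5 reductase Cyb5r3 changed by -0.41 (limma adjusted p = 0.237). Of the other arachidonic acid enzymes, 0 of 16 tested passed, with 2 higher and 2 lower at an unadjusted p under 0.05, against the same 15.5%. The leukotriene pathway genes Alox5ap and Alox5 changed by -0.94 and -0.92 (limma adjusted p = 0.0726 and 0.214), and the male-specific epoxygenase and testosterone hydroxylase Cyp2c11 by 0.64 (0.109).

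**Figure D3:**
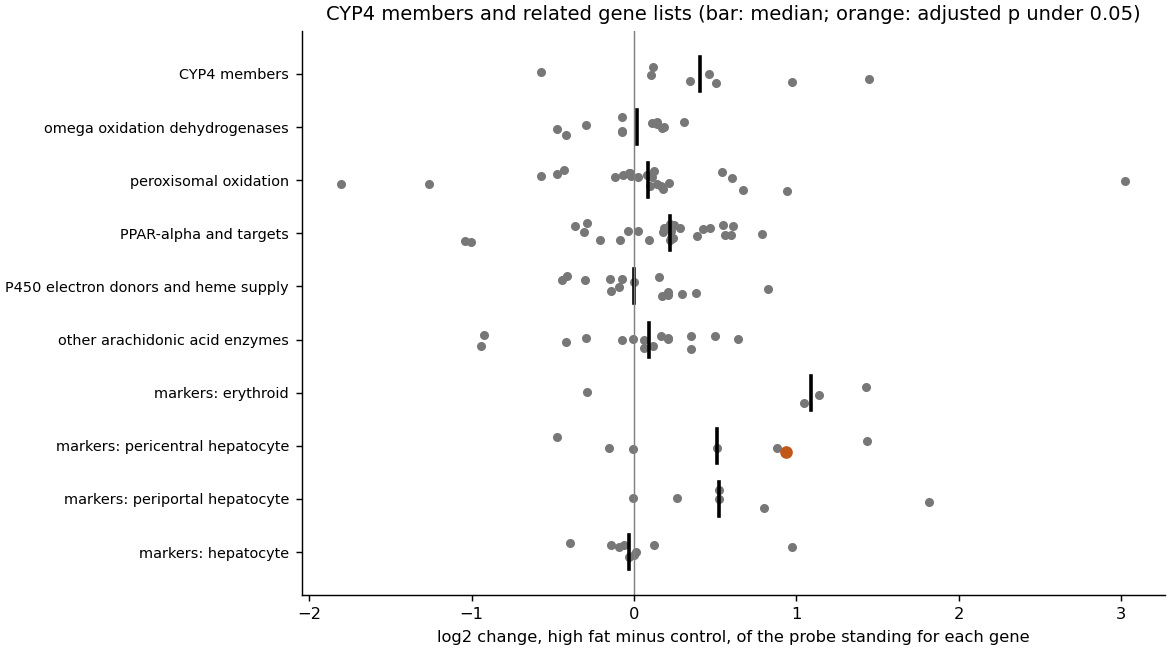
Log2 change, high fat minus control (horizontal axis), of the probe that stands for each gene, 1 point per gene, for the 8 CYP4 members, the 5 related gene lists and 4 of the 9 marker lists. Black bars are medians and orange marks a gene past the threshold after adjustment over genes, which among the lists drawn is only the pericentral marker gene Gulo. The erythroid, pericentral and periportal lists have medians between 0.51 and 1.09, and the CYP4 members lie between -0.57 and 1.45. The marker lists not drawn have medians between -0.61 (cholangiocyte) and 0.40 (stellate).

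Few markers of cell types and zones passed the threshold, and fewer cells of a type cannot be told apart from less RNA per cell in these whole-liver samples. Of the erythroid markers, 0 of 4 tested passed it by limma, and 3 were higher at an unadjusted p under 0.05, against 7.78% of all tested probes. Pericentral, periportal and stellate markers also had 3 each higher at that p, of 7, 6 and 6 tested, and 1 stellate marker was lower. Kupffer cell and macrophage markers had 2 lower of 7, lymphocyte markers 2 lower of 6 and cholangiocyte markers 1 lower of 4. Sinusoidal endothelial markers had 2 higher and 1 lower of 6, and hepatocyte markers 1 higher of 9. Of all tested probes, 15.5% passed that p in either direction. The mean level of the erythroid markers ranged from -0.02 to 1.11 on control arrays and from 1.29 to 1.501 on high-fat arrays. Pericentral hepatocyte markers ranged from 1.501 to 2.06 and from 1.93 to 2.99, with 1 of 7 tested genes past the threshold (Gulo, a vitamin C synthesis gene). A second, the ornithine aminotransferase Oat, had a limma adjusted p of 0.0493 over probes and of 0.0511 over genes. In the pericentral list 4 of 7 changes were positive, and those of Glul, Rhbg and Cyp1a2 were -0.15, -0.47 and -0.003. Periportal markers ranged from 2.74 to 3.49 and from 3.72 to 4.16, with 0 of 6 past it. Kupffer cell and macrophage markers ranged from 0.51 to 1.06 and from -0.27 to 0.67, with 0 of 7 past it. Sinusoidal endothelial and cholangiocyte markers had 0 past it of 6 and of 4 tested, stellate markers 1 higher of 6 (Reln), and lymphocyte markers 1 lower of 6 (Cd3g, a chain of the T cell receptor complex). Their part in the CYP4 values was not tested.

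The nearest profiles to each member were sought among 13226 genes as the smallest root mean square difference between profiles over the 8 arrays, each centred on its own mean. For Cyp4a2 these were Alas2, the erythroid enzyme that starts heme synthesis (0.29), and the beta-like globins Hbe2 (0.30) and Hbb-b1 (0.32). The Alas2 probe had control levels of -1.75, -1.97, -3.22 and -2.60 and high-fat levels of -0.75, -1.45, -0.91 and -0.72. Like Cyp4a2, it was lowest on control replicates 3 and 4, and its change was 0.76 in slide row 1 and 2.09 in slide row 2. A second Alas2 probe had a smaller change, 0.36 against 1.43, and the erythrocyte membrane protein gene Slc4a1 changed by -0.29 (interval -1.51 to 0.92). The part of blood-cell RNA in the Cyp4a2 values was not tested.

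**Figure D4:**
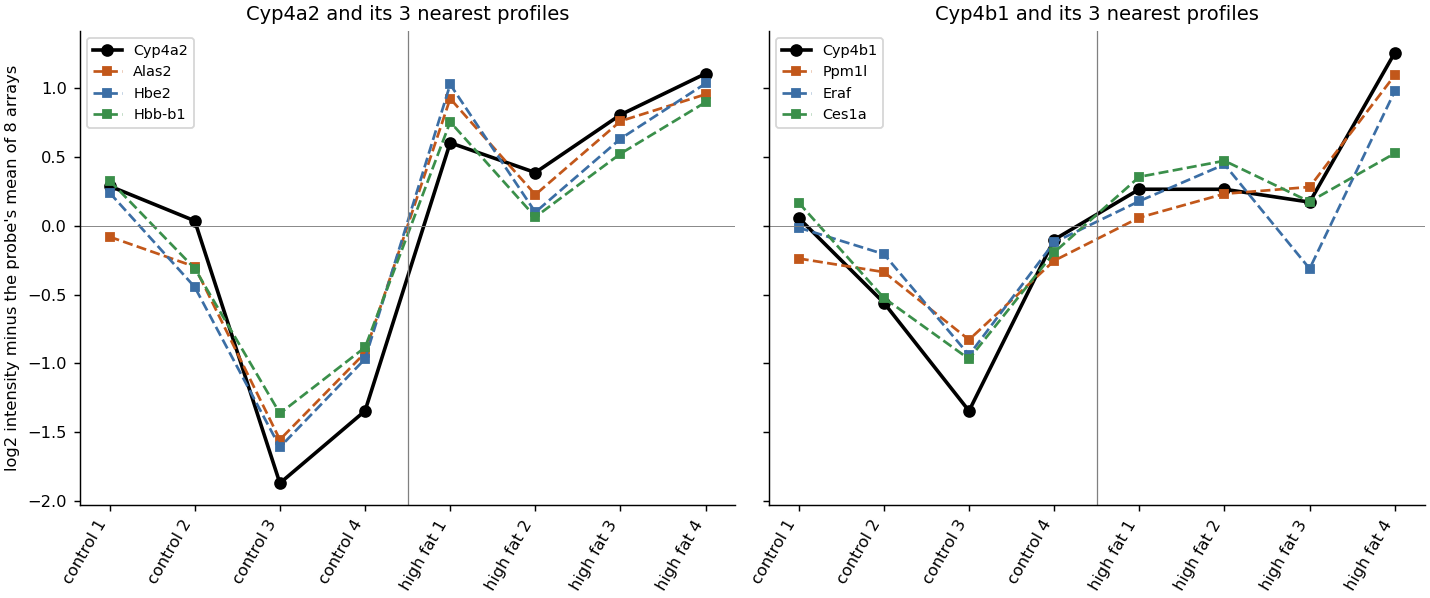
Log2 intensity minus each probe's mean over the 8 arrays (vertical axis) for Cyp4a2 and for Cyp4b1 probe GT_Rn_GE_00174022, each with its 3 nearest profiles, across control arrays 1 to 4 and high-fat arrays 1 to 4. Lines only join the values of one probe. Cyp4a2 and its neighbours Alas2, Hbe2 and Hbb-b1 are lowest on control arrays 3 and 4.

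For Cyp4b1 probe GT_Rn_GE_00174022 the nearest profiles were Ppm1l, a protein phosphatase (0.25), Eraf, the alpha-globin chaperone (0.28), and Ces1a, a carboxylesterase (0.31). Eraf has 3 probes, with changes of 0.64, 0.51 and -0.08, so the resemblance holds for the probe named and not for the whole gene. For Cyp4a1 they were Wbscr17 (0.17), Frmd5 (0.18) and Mllt6 (0.20), and for Cyp4a8 Atf7 (0.24), Csf3 (0.28) and Mirlet7b (0.29). Frmd5 was well above background on only 2 control and 2 high-fat arrays, and Atf7 on 3 and 2, so their profiles rest partly on dim signal. Cyp4a8 and its neighbours were all highest on control replicate 1. Cyp4a3, Cyp4f1, Cyp4f4 and Cyp4v3 varied little over the arrays, and their nearest profiles lay within 0.11.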

How the data were processed

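Liver RNA of 8 samples was read on 1-colour Agilent arrays of 62976 spots, and the deposited intensity values are Agilent's background-corrected processed signals from Feature Extraction 10.7.3.1, per the file headers, with probe coordinates on rn4. Log2 of that signal was taken minus each array's 75th percentile over the 22462 probes that every array measured well above background. Spots of a probe were averaged, and control spots and outlier flags were left out. No non-control spot was saturated. Probes with such a signal on at least 4 of the 8 arrays were fitted with limma 3.58.1 (R 4.3.3), and for counts of genes the probe with the highest mean stood for its gene. The number of arrays limits the precision.

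The deposited value table holds the authors' log2 values. Its column medians were -3.10, -3.21, -3.14 and -3.18 (control) and -3.15, -3.20, -3.16 and -3.20 (high fat). At least 98.47% of its values lay within 0.05 of scanner values scaled over all probes, so its scale and direction are known, and it served as an alternative.

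The genes named beyond the members were the regulators Ppara and Rxra, the partners Por and Cyb5a, up to 4 genes per list with the smallest p, and the 3 nearest profiles of each member. Acot4, Acot12, Slc4a1, Glul, Rhbg, Cyp1a2 and the Ensembl transcript were named after their values were seen. The members and lists were chosen with earlier results of these data known. Sequences came from the scanner files and from RefSeq (GRCr8), where the transcripts of all 16 member probes are listed under the same symbol. The fit was tested on simulated data (200 changed probes), where 4.76% of calls were wrong. Alternatives covered background correction, scaling, the filter, the variance model, blocks and left-out arrays.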

Additional observations from a re-analysis of the deposited data

Results flagged for a closer look

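In 4 of 94 sets of 4 arrays, the highest or lowest array lay far from the other 3 by Dixon's criterion, which chance meets in about 1 of 20. For Cyp4b1 probe GT_Rn_GE_00174022, high-fat replicate 4 was at 0.522 while the others lay between -0.561 and -0.468. For Aldh3a2, control replicate 1 was at 3.561 against 3.253 to 3.305. For Acot3, control replicate 1 was at -3.284 against -5.067 to -4.770. For Acot5, high-fat replicate 1 was at -0.195 against -2.779 to -2.506.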

How the results depend on the processing

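Of the 14 tested member probes, 12 kept their direction under all 19 alternatives. Direction could not turn with another filter, a robust variance trend or either block, because these leave the change itself as it was. With a single array left out, Cyp4a3 probe A_43_P15784 ran from -0.0677 (without high-fat replicate 4) to 0.2499 and Cyp4a8 probe A_64_P040994 from -0.8861 to 0.0166 (without control replicate 1). Cyp4a8 was 0.202 without the 2 arrays with the fewest probes well above background, an alternative chosen after seeing the data. No member probe passed the threshold in the fit reported; 2 did with normexp background correction, 1 with the filter on all 8 arrays, 3 in 2 genes with a robust variance trend (1 gene when only the probe standing for each gene is counted), and 0 to 1 with a single array left out (1 without control replicate 4).

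The count of genes past the threshold, 154, was 263 with normexp, 29 with no filter, 342 with the filter on all 8 arrays, 340 with a robust trend, 98 with slide row as a block, 7 without the 2 arrays named, and 27 to 91 with a single array left out. The count of probes, 286, was 10 with no filter, 529 with the filter on all 8 arrays, 545 with a robust trend, 171 with the slide row block, 25 without the 2 arrays and 23 to 154 with a single array left out. With the replicate block both counts were 1; the correlations of same-numbered arrays were -0.12, 0.26, 0.23 and 0.01, so the numbers were not taken as a pairing, and the block put no member past the threshold. The cause of these shifts was not tested.

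Values near 0 changed sign. Cyp4f17 probe GT_Rn_GE_00323919 was -0.0528 with normexp, -0.0138 with scaling over all probes, -0.0175 with quantile normalization, -0.0107 in the authors' deposited table and -0.1174 to 0.101 with an array left out. Cyp4f18 probe A_64_P051518 (-0.02) was 0.0284 with array weights, 0.157 without the 2 arrays and -0.1478 to 0.1695 with an array left out. Cyp4f39 was -0.0181 with normexp. Cyp4f5 probe A_64_P079666 was -0.2165 to 0.185 with an array left out. Cyp4f6 probe GT_Rn_GE_00229057 (0.03) was -0.0052 with array weights, -0.103 without the 2 arrays and -0.0546 to 0.1548 with an array left out. Ppara (-0.03) was 0.1997 without the 2 arrays and -0.3401 to 0.1979 with an array left out. Signal limits Cyp4a8, Cyp4x1 and Cyp4f39, for each of which 2 probes could not be tested. Cyp4f18 and Cyp4f40 each had an untested probe too.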
